A study of Mus musculus with 4 samples.

Results

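Solute carriers are the membrane proteins that move amino acids, sugars, nucleosides, metals, ions, lipids and vitamins across the cell surface and organelle membranes, and their genes carry the symbol Slc with a family number. The genes described here were all rows of the gene count table with such a symbol that held 200 or more counts over the 4 libraries, without Slc4a1. By this rule 200 of 379 rows with an Slc symbol were taken, out of 46078 gene rows, and they fell into 43 of the 49 families in the table. The libraries were poly(A) RNA sequencing of CD103-positive cells of mice. The Il33flx group (2 libraries) had the genotype CD11c-cre-IL33flx/flx and the Ctrl group (2 libraries) had CD11c-cre alone, so Cre was present in both groups. Mice of both groups had been given EL4-Flt3 tumour cells 10 days earlier, and cells taken from spleen and mesenteric lymph node were sorted for CD45, CD11b, MHCII and CD103 and against CD64. EL4 is a mouse T lymphoma line. Cre under the CD11c promoter acts in dendritic cells and in some other myeloid cells. Nothing in the labels gives the animal behind a library, so a p-value here measures only how these libraries vary, which may be technical.

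In a dendritic cell, carriers at the surface such as the LAT1 and CD98 pair bring in essential amino acids, and glucose and lactate carriers serve glycolysis. Carriers of endosomes and lysosomes handle the products of digestion of engulfed material, such as peptides, nucleosides, heme and metals, and carriers of the inner mitochondrial membrane exchange nucleotides and metabolites with the cytosol. Carriers of the Golgi membrane bring in the nucleotide sugars used to glycosylate proteins.

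The 3 members with the smallest p-values, and Slc11a1, which had the highest level per length among the metal carriers, are shown first by their promoter windows, which reach from 250 bases before to 50 bases after the gene start in RefSeq (GRCm38.p6). A window was found for 150 of the 200 members and for 27025 genes in all, and 1 window was used per gene. Slc44a1 encodes a choline carrier and lies on the plus strand, with its window at chr4:53440163-53440462. Slc22a23 encodes a member of the organic ion carrier family whose substrate is not settled, and its window is on the minus strand at chr13:34345169-34345468. Slc12a7 encodes the potassium chloride cotransporter KCC4. Its window is on the plus strand at chr13:73763410-73763709, inside the gene as GENCODE M21 draws it from position 73733094. Slc11a1 encodes NRAMP1, a metal carrier of the phagosome membrane, and its window is on the plus strand at chr1:74374953-74375252. Capitals mark matches on either strand to GAGGAA (the core of the PU.1 motif), TGACTCA (AP-1), CACGTG (an E-box) or GGGCGG (a GC box).
Slc44a1: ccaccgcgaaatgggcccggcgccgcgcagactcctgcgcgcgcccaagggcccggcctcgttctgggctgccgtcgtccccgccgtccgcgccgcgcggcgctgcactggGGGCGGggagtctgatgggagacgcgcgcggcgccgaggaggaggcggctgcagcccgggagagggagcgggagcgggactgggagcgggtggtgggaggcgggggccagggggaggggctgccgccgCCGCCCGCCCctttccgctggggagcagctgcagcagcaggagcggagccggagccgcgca
Slc22a23: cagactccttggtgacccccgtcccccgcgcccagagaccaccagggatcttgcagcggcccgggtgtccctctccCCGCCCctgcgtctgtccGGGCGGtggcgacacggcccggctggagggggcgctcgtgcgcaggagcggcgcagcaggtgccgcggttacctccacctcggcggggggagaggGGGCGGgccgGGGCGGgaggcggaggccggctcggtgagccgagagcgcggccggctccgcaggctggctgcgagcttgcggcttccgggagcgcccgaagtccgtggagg
Slc12a7: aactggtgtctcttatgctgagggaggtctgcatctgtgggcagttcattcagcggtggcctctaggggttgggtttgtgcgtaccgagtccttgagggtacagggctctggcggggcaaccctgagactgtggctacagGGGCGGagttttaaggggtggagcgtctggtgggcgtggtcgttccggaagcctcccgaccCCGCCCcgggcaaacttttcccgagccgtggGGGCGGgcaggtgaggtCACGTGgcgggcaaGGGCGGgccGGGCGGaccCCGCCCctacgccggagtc
Slc11a1: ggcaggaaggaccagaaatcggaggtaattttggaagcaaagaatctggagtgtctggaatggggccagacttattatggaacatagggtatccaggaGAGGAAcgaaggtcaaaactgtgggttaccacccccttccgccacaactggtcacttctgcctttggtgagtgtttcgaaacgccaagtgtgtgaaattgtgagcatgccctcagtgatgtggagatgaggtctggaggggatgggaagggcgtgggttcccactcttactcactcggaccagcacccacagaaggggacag
The Slc44a1, Slc22a23 and Slc12a7 windows held 3, 4 and 6 GC boxes and no PU.1 core, and the Slc12a7 window also held 1 E-box. The Slc11a1 window held 1 PU.1 core, at position -152 from the start, and no GC box. A GC box was found in 74.0% of the 150 member windows, against 62.3% of the 10659 windows of tested genes and 35.9% of all windows. The E-box was found in 12.7% of member windows, against 10.0% of those of tested genes. The PU.1 core was found in 23.3% of member windows, against 27.5% of those of tested genes, and AP-1 in 2.67%, against 3.58%. These matches are a description of the letters and not evidence of binding.

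The libraries held 67707682 and 69983532 gene counts in Il33flx and 81217828 and 75094424 in Ctrl, and the members took 1.10% to 1.19% of them. Il33, the targeted gene, had 4 and 0 counts in Il33flx and 4 and 8 counts in Ctrl, too few to check the labels. Values per library are counts scaled to a common library total with TMM factors (CPM), and levels of different genes are compared as CPM per kilobase of exon. Of the sorted antigens, Ptprc (CD45) averaged 941 ± 48.5 CPM in Il33flx and 788 ± 317 in Ctrl, Itgam (CD11b) 106 ± 11.7 and 118 ± 14.5, Itgae (CD103) 66.7 ± 13.96 and 92.1 ± 33.4, and Fcgr1 (CD64) 4.24 ± 0.820 and 5.02 ± 0.673 (SD, n = 2 each). All 8 conventional dendritic cell markers were present, and among them Xcr1 and Clec9a, which mark a subset that usually has little CD11b, had 506 to 841 CPM and 99.8 to 119.5 CPM over the 4 libraries. Both Il33flx libraries lay below both Ctrl libraries for 3 of these 8 markers, against 14.9% of tested genes, and above them for 0, against 15.4%. The 3 were Zbtb46, Irf8 and Itgax (CD11c). Itgax had 359 and 407 CPM in Il33flx and 647 and 517 CPM in Ctrl (unadjusted p = 0.0182, adjusted p = 0.995, edgeR). Library Ctrl 1 stood apart from the other 3 on the first principal component of all tested genes, which held 49.97% of the variance, with a score of -70.1 against 18.8 to 26.2. Its summed level of 8 mature dendritic cell markers was 1944 CPM, against 1019 and 915 in Il33flx and 943 in Ctrl 2. Markers of other cells also lay apart, where 15.4% of all tested genes had both Il33flx libraries above both Ctrl libraries and 14.9% had both below. All 8 B cell markers had both Il33flx libraries above both Ctrl libraries (summed 125 and 107 CPM in Il33flx, 58.0 and 61.5 in Ctrl), as did 6 of 8 erythroid markers (24.7 and 11.1, against 6.79 and 6.06) and 5 of 8 neutrophil markers (546 and 379, against 295 and 266). For T cell and EL4 markers 6 of 8 had both Il33flx libraries below both Ctrl libraries (102 and 68.8, against 110.3 and 88.3), and the macrophage and monocyte markers overlapped for 8 of 8 (451 and 363, against 450 and 366). The only marker at 0 in a library was Klf1, an erythroid factor, in Ctrl 1. None of these lists had a gene called at adjusted p under 0.05 by edgeR. The part of Ctrl 1 and of these cell types in the values below was not tested except where a value without Ctrl 1 is given.

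The libraries of sorted CD103-positive cells held transcripts of carriers of every substrate class set out here, and the cell type they came from was not tested. Of the rows left out by the rule, 178 had fewer counts and 71 of those had no read in any library. The families 13, 24, 32, 34, 47 and 51 had no member. The largest families were the mitochondrial Slc25 carriers, with 37 of 48 genes taken, and Slc35, the nucleotide sugar carrier family, with 21 of 27. The Slc6 neurotransmitter and amino acid carriers (6 of 22 genes) and the Slc22 organic ion carriers (6 of 26) were mostly below the limit. Just outside it were Slc26a4, Slc43a1, Slc8a2 and Slc15a2 with 185, 187, 196 and 197 counts in all, and among those just inside it Slc4a5, Slc4a11 and Slc12a3 with 213, 223 and 241 counts. Slc46a2, a carrier of the thymus and innate immune cells, was not a member, with 3 and 1 counts in Il33flx and 2 and 2 in Ctrl. By annotation 198 members were protein-coding, and 6 were not carriers themselves: the scaffold genes Slc9a3r1 and Slc9a3r2, the pseudogene Slc2a4rg-ps, the antisense gene Slc36a3os, and Slc7a6os and Slc4a1ap, which are named for a neighbouring gene or a partner protein.

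**Figure D1:**
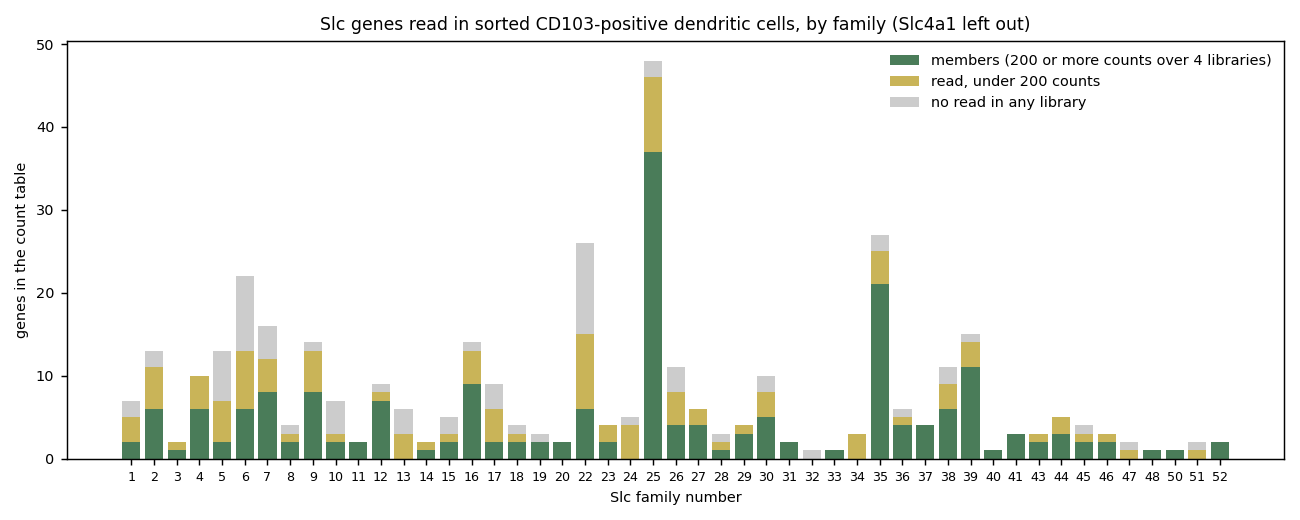
Number of Slc genes in the count table by family number, split into members (200 or more counts over the 4 libraries), genes read below that limit and genes with no read. Family 25 has the most members, 37, and family 35 is next with 21.

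The carriers differed widely in level. The median member had 4.65 CPM per kilobase over the 4 libraries. Above 100 CPM per kilobase were 5 members, above 10 were 58, between 1 and 10 were 98 and below 1 were 44. The highest was Slc25a5, the ADP/ATP carrier ANT2, at 493 ± 10.1 CPM per kilobase in Il33flx and 540.1 ± 23.1 in Ctrl (SD, n = 2 each). Next came Slc46a3, a carrier of the lysosome membrane, at 190.1 ± 4.63 in Il33flx and 189.9 ± 4.73 in Ctrl. Slc8b1, the mitochondrial sodium/calcium exchanger, had 127 ± 5.08 and 159 ± 37.8, Slc35c2, a Golgi nucleotide sugar carrier family member, 132 ± 9.06 and 152 ± 19.5, and Slc25a11, the oxoglutarate/malate carrier, 125 ± 2.35 and 137 ± 18.8 CPM per kilobase in Il33flx and Ctrl. The spreads of these 3 genes overlapped, so their order is not resolved, while Slc25a5 lay above all others in every library. At the low end, Slc12a3 and Slc4a5 had 0.0729 and 0.123 CPM per kilobase over all libraries.

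**Figure D2:**
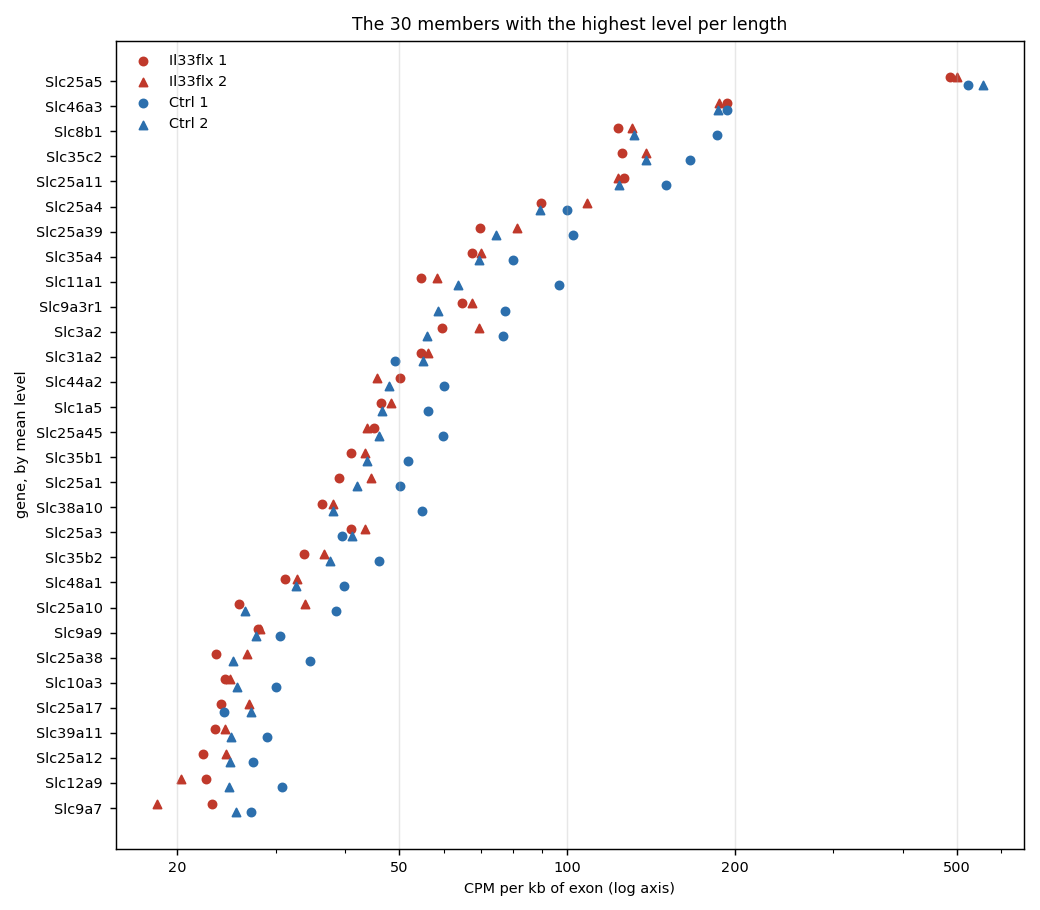
CPM per kilobase of exon (log axis) of the 30 members with the highest mean level, with 1 symbol per library and Il33flx drawn above Ctrl. For Slc8b1, Slc35c2, Slc11a1 and many others Ctrl 1 is the rightmost symbol, while Slc46a3 is nearly the same in the 4 libraries.

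No carrier gene passed the test between the groups. At adjusted p under 0.05 edgeR called 0 of the 200 members, against a background of 0.00667% of the 14995 tested genes (1 gene). DESeq2 on the same genes also called 0 members, against 0.353% of tested genes, and so did limma-voom, against 0% of tested genes. In the authors' deposited table, which lists all 200 members, 0 had an adjusted p under 0.05, against 0.34% of its 15001 genes. At an unadjusted edgeR p under 0.05 there were 3 members, Slc44a1, Slc22a23 and Slc12a7, all lower in Il33flx, against 3.26% of tested genes in either direction (1.24% lower and 2.02% higher). DESeq2 and limma-voom each had 4 members at an unadjusted p under 0.05, against 3.3% and 3.41% of tested genes, the same 3 and Slc35d2, which was higher in Il33flx. Refitted without Il33flx 1, Il33flx 2, Ctrl 1 or Ctrl 2, edgeR called 0 members each time, against 0.183%, 0.00628%, 0.227% and 0% of tested genes. At an unadjusted p under 0.05 those fits had 2, 2, 4 and 50 members, against 2.35%, 1.95%, 5.67% and 20.6% of tested genes. In a bulk sample, fewer cells of a type and less RNA per cell cannot be told apart.

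Whether the members lay lower or higher in Il33flx on balance depended on the scaling, and under both scalings shown here their median lay slightly below that of all tested genes. With TMM factors their median log2 fold change was -0.06, against 0.01 over all tested genes, and it was negative for 119 of 200 members (59.5%), against 48.2% of tested genes. Both Il33flx libraries lay below both Ctrl libraries for 50 members (25%), against 14.9% of tested genes, and above them for 24 (12%), against 15.4%. Scaled by library size alone, 33 members lay apart lower and 35 higher, against 10.1% and 21.4% of tested genes, with a median of 0.016 for members and 0.09 for all tested genes. The members' median minus that of all tested genes was -0.08 with either scaling. Most of the groups that lay apart did so by little: the gap between the nearest libraries was over 1.2-fold for 5 of the 50 and 4 of the 24. Of the 50 members apart and lower, 45 had their highest value in Ctrl 1, and of the 24 apart and higher, 12 had their lowest value there. Without Ctrl 1 the median was -0.04 for members and 0.01 for all tested genes, and 85 members lay apart lower and 56 higher, against 32% and 32.5% of tested genes.

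**Figure D3:**
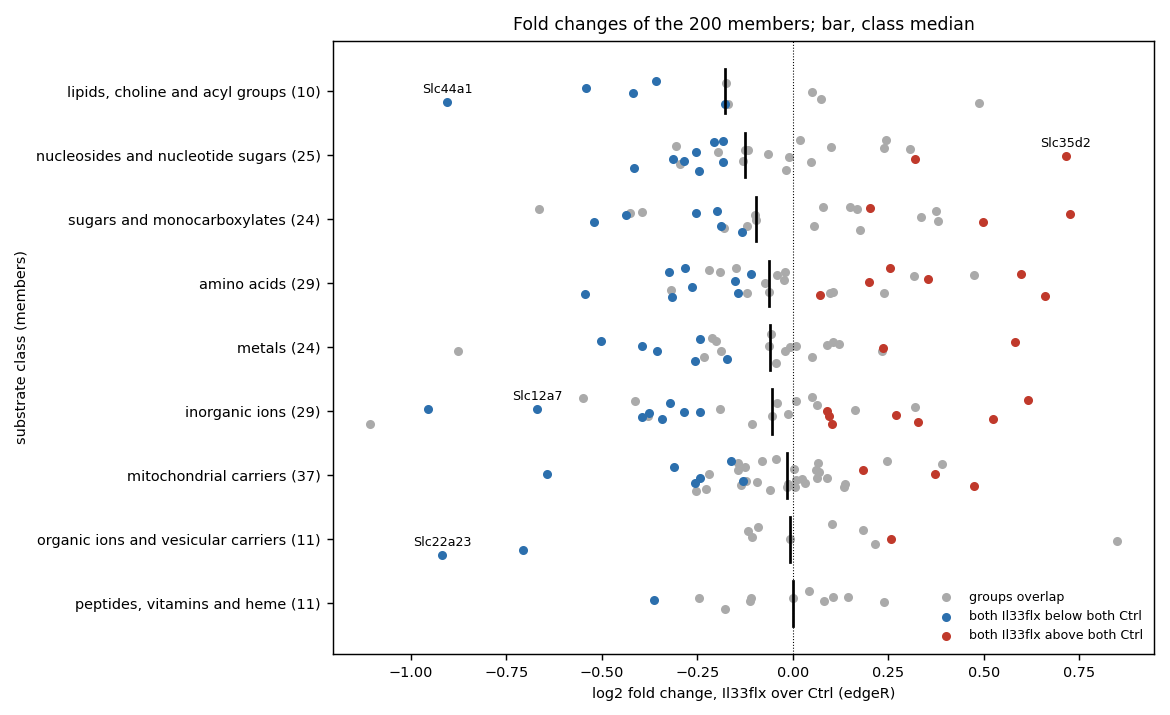
Log2 fold change of Il33flx over Ctrl for each of the 200 members by substrate class, with a bar at the class median and the number of members in parentheses. Blue points are the 50 members with both Il33flx libraries below both Ctrl libraries, red points the 24 with both above, and grey points the 126 whose groups overlap, all with TMM scaling.

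For most members the interval stayed within a 2-fold change, but the intervals measure only how these libraries vary, which may be technical. The 95% interval of the log2 fold change lay within 1 unit of 0, a 2-fold change, for 142 members and reached past it for 58. The fitted change itself was under 0.5 log2 units in size for 178 members, with a median size of 0.18 and a median standard error of 0.24. The difference between Ctrl 1 and Ctrl 2 was larger than the difference between the groups for 141 members. On the log2 scale the median size of the Ctrl 1 to Ctrl 2 difference was 0.33, against 0.15 between the 2 Il33flx libraries. Ctrl 1 was the highest of the 4 libraries for 95 members (47.5%), against 34.2% of tested genes, and the lowest for 59 (29.5%), against 36.03% of tested genes. The members' median deviation from the gene mean in Ctrl 1 was 0.12 log2 units, against 0.00 for all tested genes.

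**Figure D4:**
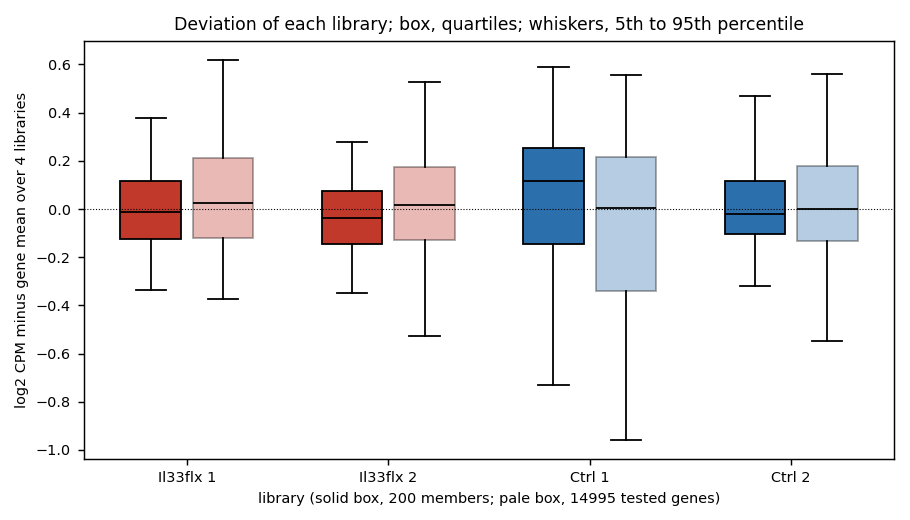
Log2 CPM of each library minus the mean of that gene over the 4 libraries, as boxes of quartiles with whiskers from the 5th to the 95th percentile, solid for the 200 members and pale for the 14995 tested genes. The member box of Ctrl 1 has its median at 0.12, above those of the other 3 libraries, and the longest lower whisker of the member boxes, to -0.73.

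Lipid, choline and acyl group carriers held the gene with the smallest p. Slc44a1 (ENSMUSG00000028412, chr4:53440413-53622478, plus strand, GRCm38) had 12.03 and 15.98 CPM in Il33flx and 27.44 and 24.98 CPM in Ctrl. Both Il33flx libraries were lower, and the gap between the nearest libraries was 1.56-fold, the widest among members. Its log2 fold change was -0.90 ± 0.24 (SE, 95% interval -1.47 to -0.34), with an unadjusted p of 0.00736 and an adjusted p of 0.995 by edgeR. The adjusted p was 0.176 by DESeq2 and 0.168 in the authors' deposited table, and it was 0.155 or more in edgeR fits without 1 library at a time. Without Ctrl 1 the log2 fold change was -0.83. Its exons overlap 310 bases of 1700060J05Rik on the opposite strand, and reads of the 2 genes cannot be told apart without a stated strand setting. The paralogue Slc44a2, also a choline carrier, had 435 and 395 CPM in Il33flx and 521 and 416 CPM in Ctrl, with overlapping groups. The fatty acid transport proteins of family 27 had negative fold changes in 4 of 4 members, with log2 values from -0.54 to -0.17. Of tested genes 48.2% had a negative fold change, or 37.6% by library size alone. The family lay apart lower in 3 members, against 14.9% of tested genes, or in 2 by library size alone, against 10.1%. Among them Slc27a4 had 29.9 and 23.6 CPM in Il33flx and 40.2 and 31.2 CPM in Ctrl (log2 fold change -0.42 ± 0.23, adjusted p = 0.995, edgeR). Without Ctrl 1 the log2 fold change of Slc27a4 was -0.21. Slc10a3, of the bile acid carrier family but with no settled substrate, had 49.2 and 50.3 CPM in Il33flx and 60.9 and 51.7 in Ctrl. Over the 10 genes of the class the median log2 fold change was -0.18, and -0.10 when scaled by library size alone. With TMM factors 5 lay apart lower and 0 higher, against 14.9% and 15.4% of tested genes. By library size alone 4 lay apart lower and 1 higher, against 10.1% and 21.4%. The same shares of tested genes stand behind the counts of each class below, and no difference from them was tested.

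Organic ion carriers held the member with the second smallest p. Slc22a23 (ENSMUSG00000038267, chr13:34179158-34345182, minus strand) had 17.4 and 20.7 CPM in Il33flx and 42.1 and 30.05 CPM in Ctrl. Both Il33flx values were below both Ctrl values, with a gap of 1.45-fold. Its log2 fold change was -0.92 ± 0.25 (SE, 95% interval -1.51 to -0.32), with an unadjusted p of 0.0086 and an adjusted p of 0.995 by edgeR. The adjusted p was 0.225 by DESeq2 and 0.219 in the authors' deposited table, and without Ctrl 1 the log2 fold change was -0.65. Of the other 10 genes of the class 1 lay apart lower and 1 higher. The lower one, named here after its values were seen, was Slc18a1, the vesicular monoamine carrier VMAT1, which was weakly expressed with 1.06 and 1.40 CPM in Il33flx and 2.58 and 1.44 CPM in Ctrl, a gap of 1.03-fold. Slc22a5, the carnitine carrier OCTN2, had 40.3 and 48.2 CPM in Il33flx and 54.1 and 42.1 CPM in Ctrl, and Slc14a1, a urea carrier, had 46.9 and 48.5 CPM in Il33flx and 46.3 and 49.6 CPM in Ctrl. Over the 11 genes the median log2 fold change was -0.01, and 0.07 by library size alone, with 2 apart lower and 1 higher under both scalings.

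Inorganic ion carriers included the third of these genes. Slc12a7 (ENSMUSG00000017756, chr13:73733094-73816754, plus strand) had 60.0 and 57.7 CPM in Il33flx and 114 and 73.4 CPM in Ctrl. The Il33flx libraries were close together and below both Ctrl libraries, of which Ctrl 1 was far above Ctrl 2. Its log2 fold change was -0.67 ± 0.25 (SE, 95% interval -1.26 to -0.08), with an unadjusted p of 0.0323 and an adjusted p of 0.995 by edgeR, and it was -0.31 without Ctrl 1. In family 12, the cation chloride cotransporters, 4 of 7 members lay apart lower and 2 higher, against 14.9% and 15.4% of tested genes. Slc12a9, a family member without a settled substrate, had 113 and 102 CPM in Il33flx and 155 and 124 CPM in Ctrl. Slc12a3, the thiazide-sensitive cotransporter of the kidney, was weakly expressed with 0.467 and 0.635 CPM in Il33flx and 1.36 and 0.784 CPM in Ctrl. On the higher side, the sodium/proton exchanger Slc9a2 had 1.66 and 1.93 CPM in Il33flx and 1.303 and 1.037 CPM in Ctrl (log2 fold change 0.62 ± 0.39, adjusted p = 0.995, edgeR). The scaffold gene Slc9a3r1 had 125 and 130.02 CPM in Il33flx and 149 and 113 CPM in Ctrl. Slc8b1 had 427 and 452 CPM in Il33flx and 642 and 457 CPM in Ctrl, so that Ctrl 2 was level with the Il33flx libraries, and its log2 fold change of -0.32 was -0.05 without Ctrl 1. Over the 29 genes of the class the median was -0.05 with 8 apart lower and 7 higher, against 0.03 with 6 lower and 8 higher by library size alone.

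Nucleoside and nucleotide sugar carriers held the gene with the smallest p in the higher direction. Slc35d2, a Golgi nucleotide sugar carrier (ENSMUSG00000033114, chr13:64096308-64129368, minus strand), had 13.4 and 14.2 CPM in Il33flx and 6.32 and 10.6 CPM in Ctrl. Both Il33flx libraries were higher, and Ctrl 1 was the lowest of the 4. Its log2 fold change was 0.71 ± 0.31 (SE, 95% interval -0.02 to 1.45), with an unadjusted p of 0.0554 and an adjusted p of 0.995 by edgeR, and it was 0.40 without Ctrl 1. Of the 21 members of family 35, 14 had a negative fold change, against 48.2% of tested genes, and 7 lay apart lower, against 14.9%. By library size alone 13 had a negative fold change, against 37.6%, and 4 lay apart lower, against 10.1%. Slc35d2 was the only one of the family apart higher under both scalings. Slc35c2 had 491 and 541 CPM in Il33flx and 649 and 541 CPM in Ctrl, and Slc35a4 had 221 and 229.8 CPM in Il33flx and 261 and 228 CPM in Ctrl, so in both genes Ctrl 2 was level with the Il33flx libraries. Of the nucleoside carriers, Slc28a2, which takes up purine nucleosides with sodium, had 17.1 and 16.4 CPM in Il33flx and 13.8 and 13.04 CPM in Ctrl, with groups apart and little spread within them (log2 fold change 0.32 ± 0.21, adjusted p = 0.995, edgeR). Slc29a3, the lysosomal nucleoside carrier ENT3, had 118 and 102 CPM in Il33flx and 143 and 119.6 CPM in Ctrl (log2 fold change -0.25 ± 0.19, adjusted p = 0.995, edgeR). Over the 25 genes the median was -0.12 with 8 apart lower and 2 higher, against -0.05 with 4 lower and 2 higher by library size alone.

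Metal carriers were led by Slc11a1, at 203 and 216 CPM in Il33flx and 358 and 236 CPM in Ctrl. Both Il33flx libraries were below both Ctrl libraries, with a gap of 1.09-fold to Ctrl 2. Its log2 fold change was -0.50 ± 0.23 (SE, 95% interval -1.06 to 0.06, unadjusted p = 0.0724, adjusted p = 0.995, edgeR), and it was -0.16 without Ctrl 1. The second gene of the family, Slc11a2 or DMT1, which imports iron across the plasma and endosomal membranes, had 43.03 and 42.27 CPM in Il33flx and 57.6 and 44.3 CPM in Ctrl. The iron exporter ferroportin, Slc40a1, had 51.9 and 38.9 CPM in Il33flx and 36.2 and 41.1 CPM in Ctrl, with overlapping groups. Of the zinc importers of family 39, 9 of 11 had a negative fold change, against 48.2% of tested genes, or 6 of 11 by library size alone, against 37.6%, with 3 apart lower and 1 higher under both scalings. Slc39a8 (ZIP8) was weakly expressed, at 3.29 and 2.58 CPM in Il33flx and 1.89 and 3.78 CPM in Ctrl. Slc30a9, a zinc transporter family member, had 28.5 and 28.6 CPM in Il33flx and 13.4 and 24.8 CPM in Ctrl, and its log2 fold change of 0.58 ± 0.31 (adjusted p = 0.995, edgeR) was 0.21 without Ctrl 1. The copper carrier Slc31a2 had 111 and 114 CPM in Il33flx and 99.97 and 112 CPM in Ctrl. Over the 24 genes the median was -0.06 with 6 apart lower and 2 higher, against 0.02 with 5 lower and 4 higher by library size alone.

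Among the partners of these metal carriers, 12 of 15 iron genes passed the filter, with 0 called, 1 apart lower, 1 higher (against 14.9% and 15.4% of tested genes) and a median log2 fold change of -0.03. The transferrin receptor Tfrc had 24.02 and 17.8 CPM in Il33flx and 9.77 and 22.3 CPM in Ctrl, so that Ctrl 1 was the low library. The ferritin chain Fth1 had 992 to 1103 CPM over the 4 libraries. Of the zinc response genes 3 of 4 were tested and 0 called. Metallothionein Mt1 had 11.4 and 8.74 CPM in Il33flx and 13.4 and 13.3 CPM in Ctrl, with groups apart.

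Of the amino acid carriers, Slc3a2 had the highest mean level, at 65.4 CPM per kilobase over the 4 libraries, before Slc1a5 at 49.4, Slc38a10 at 41.8 and Slc7a5 at 22.7. Slc3a2, the CD98 heavy chain, had 210.1 and 245 CPM in Il33flx and 271 and 198 CPM in Ctrl, with overlapping groups. Its light chain Slc7a5, LAT1, had 77.5 and 74.1 CPM in Il33flx and 91.7 and 92.6 CPM in Ctrl. The groups of Slc7a5 lay apart with little spread, and the log2 fold change of -0.28 ± 0.17 (95% interval -0.69 to 0.13, adjusted p = 0.995, edgeR) was the same without Ctrl 1. Slc7a11, the cystine/glutamate exchanger xCT and the other named partner of Slc3a2, was low at 3.82 and 3.26 CPM in Il33flx and 2.75 and 2.79 CPM in Ctrl (log2 fold change 0.35 ± 0.32, adjusted p = 0.995, edgeR). The glutamine carrier Slc1a5 had 193 and 202 CPM in Il33flx and 235 and 195 CPM in Ctrl. Slc6a6, the taurine carrier, had 155 and 168 CPM in Il33flx and 221 and 185 CPM in Ctrl (log2 fold change -0.32 ± 0.18, adjusted p = 0.995, edgeR). Slc36a1, a proton-coupled amino acid carrier of the lysosome, had 1.56 and 1.54 CPM in Il33flx and 1.07 and 0.891 CPM in Ctrl, a gap of 1.44-fold at a low level. The neighbour-named gene Slc7a6os had 13.1 and 13.99 CPM in Il33flx and 6.48 and 11.5 CPM in Ctrl. Over the 29 genes the median was -0.06 with 8 apart lower and 6 higher, against 0.02 with 4 lower and 7 higher by library size alone.

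Genes of the amino acid stress response driven by ATF4, which controls several of these carriers were set beside them. Of 17 such genes 16 were tested, 0 were called, 2 lay apart higher and 3 lower (against 15.4% and 14.9% of tested genes), and the median log2 fold change was 0.07. Atf4 itself had 54.3 and 61.3 CPM in Il33flx and 57.4 and 53.99 CPM in Ctrl. Asns, which makes asparagine, had 119 and 117 CPM in Il33flx and 104 and 84.5 CPM in Ctrl (log2 fold change 0.32 ± 0.19, adjusted p = 0.995, edgeR).

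Sugar and monocarboxylate carriers included several genes in which the Ctrl libraries differed widely. Slc2a1, the glucose carrier GLUT1, had 35.3 and 26.3 CPM in Il33flx and 44.9 and 38.5 CPM in Ctrl, with groups apart (log2 fold change -0.44 ± 0.23, adjusted p = 0.995, edgeR). Slc2a3, GLUT3, had 75.9 and 58.6 CPM in Il33flx and 65.7 and 63.7 CPM in Ctrl. Slc2a6, GLUT6, had 61.5 and 65.3 CPM in Il33flx and 108 and 58.4 CPM in Ctrl, and its log2 fold change of -0.39 was 0.13 without Ctrl 1. Of the lactate carriers, Slc16a1 (MCT1) had 15.2 and 16.9 CPM in Il33flx and 8.50 and 20.1 CPM in Ctrl, so the Ctrl libraries lay on both sides of the Il33flx libraries. Slc16a3 (MCT4) had 43.5 and 35.4 CPM in Il33flx and 34.6 and 34.01 CPM in Ctrl. Slc37a2, a sugar phosphate carrier of macrophages, had 12.97 and 9.49 CPM in Il33flx and 13.2 and 11.2 CPM in Ctrl, and Slc50a1, a sugar carrier, had 22.9 and 28.1 CPM in Il33flx and 30.3 and 24.3 CPM in Ctrl. Slc5a3, the myo-inositol carrier, had 4.33 and 3.39 CPM in Il33flx and 1.38 and 3.28 CPM in Ctrl, and it shares exon sequence on the same strand with Mrps6. Slc45a4 had 4.42 and 3.49 CPM in Il33flx and 2.51 and 3.08 CPM in Ctrl. Over the 24 genes the median was -0.10 with 6 apart lower and 3 higher, against -0.01 with 3 lower and 4 higher by library size alone.

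Mitochondrial carriers were the largest class and held the most abundant member. Over the 37 genes the median log2 fold change was -0.02 with 6 apart lower and 3 higher, against 0.06 with 4 lower and 6 higher by library size alone. Slc25a5 had 800.0 and 824 CPM in Il33flx and 862 and 916 CPM in Ctrl, and Slc25a11 had 268 and 261 CPM in Il33flx and 319 and 262 CPM in Ctrl. With TMM factors the groups of Slc25a5 lay apart, by 1.05-fold between the nearest libraries, but by library size alone they overlapped. Slc25a29, which carries basic amino acids, had 6.36 and 7.16 CPM in Il33flx and 13.8 and 7.31 CPM in Ctrl, and its log2 fold change of -0.64 ± 0.35 (adjusted p = 0.995, edgeR) was -0.11 without Ctrl 1. Slc25a33, a pyrimidine nucleotide carrier, had 3.82 and 4.05 CPM in Il33flx and 3.04 and 2.63 CPM in Ctrl. Slc25a37, mitoferrin, which brings iron to the mitochondria of red cell precursors and other cells, had 12.96 and 11.08 CPM in Il33flx and 8.29 and 10.3 CPM in Ctrl. The groups of both Slc25a33 and Slc25a37 lay apart. The summed erythroid markers were also higher in Il33flx, as given above, and their part in the Slc25a37 values was not tested.

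Peptide, vitamin and heme carriers had a median log2 fold change of 0.00 over 11 genes with 1 apart lower and 0 higher, against 0.08 with 1 lower and 2 higher by library size alone. Slc46a3 had 475 and 459 CPM in Il33flx and 475 and 459 CPM in Ctrl, and the 95% interval of its log2 fold change ran from -0.39 to 0.39. The lysosomal histidine and peptide carrier Slc15a4 had 102 and 102 CPM in Il33flx and 124 and 95.8 CPM in Ctrl, and its relative Slc15a3 had 6.37 and 4.81 CPM in Il33flx and 5.81 and 4.59 CPM in Ctrl. Slc15a3 shares 1541 exon bases with Tmem132a on the opposite strand. The heme carrier Slc48a1 had 85.7 and 90.2 CPM in Il33flx and 109 and 89.7 CPM in Ctrl, and the folate carrier Slc19a1 had 22.1 and 20.8 CPM in Il33flx and 25.4 and 20.9 CPM in Ctrl.

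**Figure D5:**
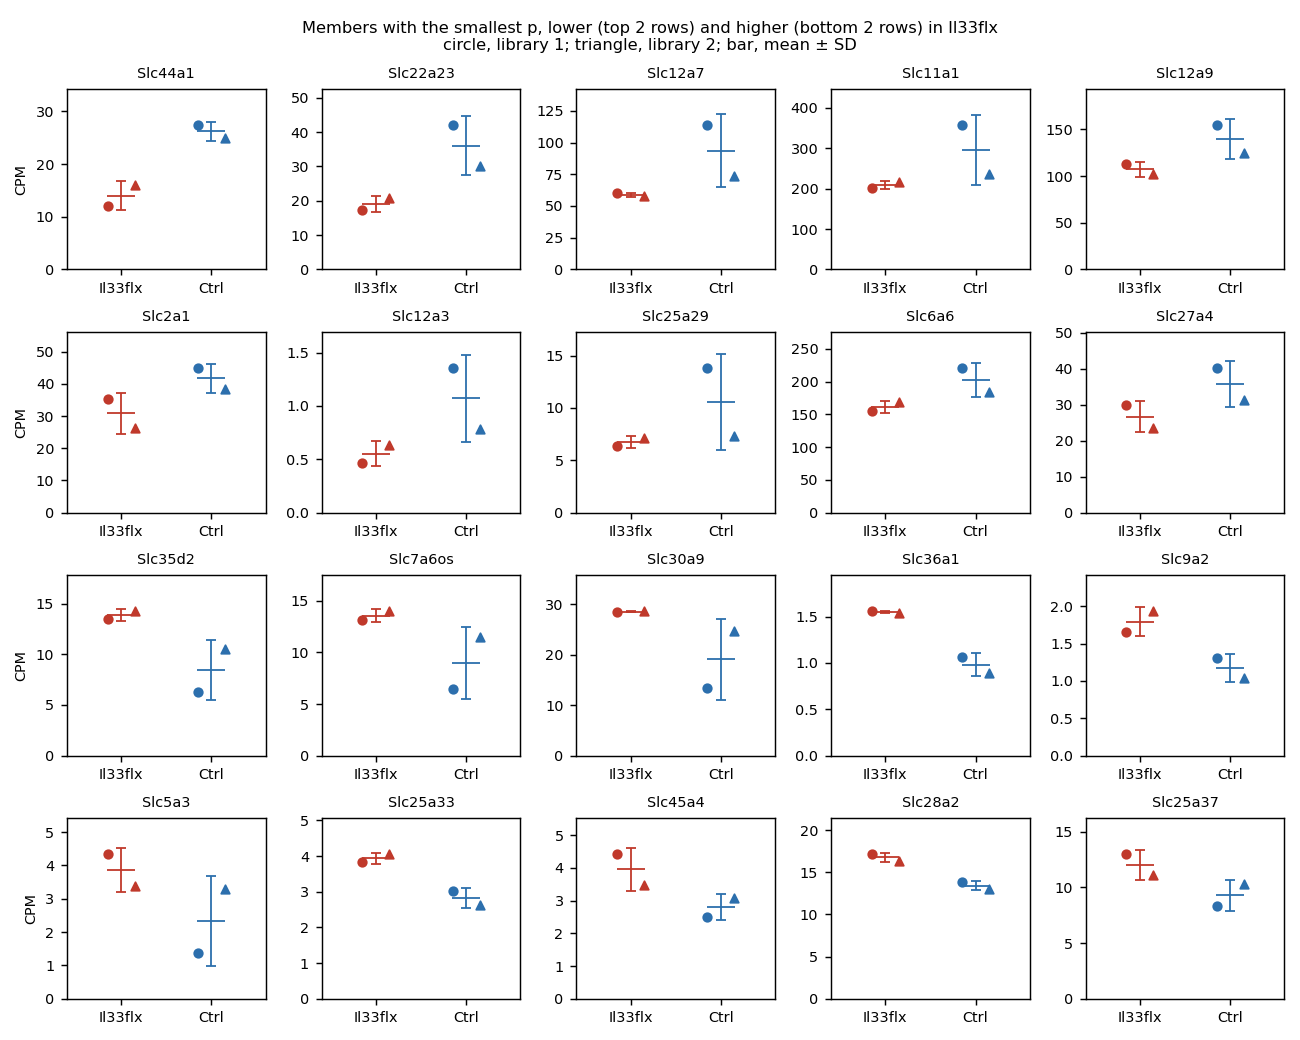
CPM per library of the 10 members with the smallest p in each direction, lower in Il33flx in the upper 2 rows and higher in the lower 2, with circles for library 1, triangles for library 2 and a bar at the mean ± SD. In Slc12a7, Slc11a1 and Slc25a29 the Ctrl 1 circle is far above the Ctrl 2 triangle, while in Slc44a1 both Ctrl symbols are close together.

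Carriers that lack an Slc symbol were set beside the members. Of 41 listed, 40 were tested and 0 called, against 0.00667% of tested genes. Of the 40, 9 lay apart lower and 3 higher, against 14.9% and 15.4% of tested genes, and the median log2 fold change was -0.08. The only one at an unadjusted p under 0.05 was Rhag, an ammonium channel of red cells, with 0.935 and 0.791 CPM in Il33flx and 0.0261 and 0.133 CPM in Ctrl (adjusted p = 0.995, edgeR). The uncoupling protein family gene Ucp2, the most abundant by CPM, had 1917 and 2124 CPM in Il33flx and 2621 and 1934 CPM in Ctrl. The pyruvate carrier subunit Mpc2 had 57.5 and 59.2 CPM in Il33flx and 29.03 and 69.98 CPM in Ctrl.

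Some members differed more between libraries of the same group than between the groups, and the following were picked after the values were seen. Between the Ctrl libraries the largest ratios were in Slc25a40, which had 4.32 and 2.77 CPM in Il33flx and 1.15 and 4.25 CPM in Ctrl, and in Slc35a5. Slc35a5, a nucleotide sugar carrier family member, had 45.001 and 39.6 CPM in Il33flx and 15.2 and 53.2 CPM in Ctrl. The sodium bicarbonate carrier Slc4a8 had 44.3 and 34.3 CPM in Il33flx and 83.1 and 32.1 CPM in Ctrl, and its log2 fold change of -0.55 was 0.30 without Ctrl 1. In each of these 3 genes Ctrl 1 lay outside the range of the other libraries, above it in Slc4a8 and below it in Slc25a40 and Slc35a5. Between the Il33flx libraries the largest ratio was in Slc4a11, with 1.18 and 0.141 CPM in Il33flx and 0.743 and 0.971 CPM in Ctrl. Next came Slc22a4, of the carnitine carrier family, with 1.59 and 0.353 CPM in Il33flx and 0.938 and 0.731 CPM in Ctrl.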

How the data were processed

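Polyadenylated RNA was sequenced in 4 libraries, 2 Il33flx and 2 Ctrl. The submitters' processing notes name build GRCm38 and the tools STAR, HTSeq, DESeq2 and Trimmomatic 0.39. Other versions, the annotation release and the strand setting are not given in the sources used here, so reads of overlapping genes on opposite strands cannot be told apart, which touches 52 members, and the exons of 10 members overlap a gene on the same strand.

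The count table holds whole-number read counts per gene as the authors deposited them, without normalization. Its 5 HTSeq summary rows were left out of the fit and of the totals. They held the reads without a unique alignment (21.9% to 23.1% of each library), outside any feature (3.22% to 4.93%) and ambiguous between genes (2.62% to 2.74%), and genes held 69.9% to 72.2%, so values of near-identical copies are uncertain. The authors' deposited table of 15001 genes has signal columns that are the counts divided by 1 size factor per library, per the file headers and a check against the counts. Per the file headers its log2 columns are the authors' fold change and standard error, its score is the Wald statistic, and its p-value columns give p before and after adjustment.

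Il33flx was compared with Ctrl over the whole table by the quasi-likelihood test of edgeR 4.0.16 (R 4.3.3) with filterByExpr, TMM factors and no covariate. Of 46078 gene rows 14995 were tested, all 200 members among them, and p-values were adjusted over all of these by the Benjamini-Hochberg method, with calls below 0.05. The spread between libraries came to a biological coefficient of variation of 28.6%. A standard error is the absolute log2 fold change over the root of the F statistic. No permutation test was run, since 0.333 is the smallest two-sided p for 2 libraries against 2. A count of 3, taken as the floor, was worth 0.0369 to 0.0443 CPM, and this covers counting error only. Gene coordinates and exon lengths are from GENCODE M21. Substrate classes were set by family number after the known substrates of each family, so a single member may not carry the substrate its class is named for. DESeq2 1.42.0, limma-voom (limma 3.58.1), other scalings, filters and membership limits, a replicate block, and fits without 1 library each were run as alternatives. The procedure was also run on simulated counts drawn without an outlying library, and its recovery of changes is not reported here.

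Members, classes and lists were chosen with earlier results of these data known. The text gives the 10 members with the smallest p in each direction among those whose higher group averaged 1 CPM or more, the 2 members of each class with the highest level per length, and 20 genes fixed by name. Other members named were chosen after their values were seen. Values of some members are not reported here.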

Additional observations from a re-analysis of the deposited data

How the results depend on the processing

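No member was called by edgeR under any alternative run, and DESeq2 and limma-voom also called 0. With library size alone in place of TMM factors, 33 members lay apart lower and the median log2 fold change was 0.016, against 50 and -0.06. A limit of 2000 counts in place of 200 leaves 149 members. Of these 149, 14 lay apart higher and 42 lower, where 24 and 50 of the 200 did. The shares over all tested genes were 15.4% higher and 14.9% lower, and they were not taken for genes above 2000 counts alone. The median with that limit was -0.11, against -0.06. Leaving out 1 library at a time gave 0 to 0 calls, 38 to 71 members apart higher, 67 to 101 apart lower, and medians of -0.12 to -0.02. A group of 1 library lies apart more easily, and 26.6% to 40.9% of tested genes then lay apart in a given direction. In these fits the lone library is assumed to vary like the other group. Without Ctrl 2, 50 members had an unadjusted p under 0.05, against 20.6% of tested genes, and 4 members did without Ctrl 1, against 5.67%. Deviations of libraries with the same number were not correlated (r = -0.03). This rests on a single difference within each group, with Ctrl 1 apart from the rest, so it cannot show whether the numbers pair the libraries. The labels do not say. With the replicate block 0 members were called, 24 lay apart higher and 50 lower, the median was -0.06, and 33 genes were called over the whole table, against 1. Over all 200 members, 101 changed sign in at least 1 fit without a library, 62 of them without Ctrl 1, among members with log2 fold changes of up to 0.67 in size. For 38 named genes with a fold change, 401 of 417 comparisons kept their sign and 16 reversed sign, in 11 genes. No member was called in any of these fits, so no gene changed its side of the threshold. These genes include the 10 with the smallest p in each direction, picked from these same values, which favours a kept sign. Most of the alternatives also use the same 4 libraries. Leaving out 1 library at a time gave log2 fold changes of -0.26 to 0.21 for Slc3a2, -0.25 to 0.030 for Slc1a5, -0.14 to 0.26 for Slc2a3, -0.32 to 0.91 for Slc16a1, -0.11 to 0.33 for Slc15a3, -0.30 to 0.10 for Slc15a4, -0.37 to 0.12 for Slc37a2, -0.35 to 0.63 for Slc39a8, -0.25 to 0.048 for Slc19a1, -0.78 to 0.13 for Slc2a6 and -1.09 to 0.30 for Slc4a8. The lowest or highest of each range was without Ctrl 1, except for Slc2a3, Slc15a3 and Slc37a2, where Il33flx 1 or Il33flx 2 was left out. With library size alone it was 0.042 for Slc3a2. The cause of these reversals was not tested. With 2 libraries a group, 58 members have intervals that reach past a 2-fold change.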
